A study of Rattus norvegicus with 10 samples.

Results

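The 10 genes described here encode the proteases with which phagocytes break down engulfed material, together with a membrane marker of the same organelles. They are 7 cysteine cathepsins (*Ctss*, *Ctsb*, *Ctsl*, *Ctsk*, *Ctsh*, *Ctsc* and *Ctsz*), the aspartic cathepsin *Ctsd*, the asparaginyl endopeptidase legumain (*Lgmn*) and the lysosomal membrane glycoprotein *Cd68*. They were taken by name, with earlier results of these data known. All 10 were found among the 14166 genes of the bulk RNA-seq table and among the 25399 features of each single-nucleus matrix. The tissue was the ipsilateral dentate gyrus, the input region of the hippocampus, of male Sprague-Dawley rats that were about 8 to 15 weeks old when injured. TBI rats received a craniectomy over the right parietal cortex and, 3 days later, a lateral fluid percussion injury (LFPI), in which a pulse of fluid strikes the intact dura. Sham rats went through the same surgery without the pulse, and naïve rats had no surgery. Tissue was taken 3 weeks after injury, from 3 sham and 3 TBI rats for bulk RNA-seq and from 2 TBI, 1 sham and 1 naïve rat for single-nucleus RNA-seq (snRNA-seq), with 1 library per rat.

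Lysosomes are acidic compartments in which hydrolases degrade proteins, lipids and glycans that reach them by phagocytosis, endocytosis or autophagy. Cathepsins are made as inactive precursors, are carried to lysosomes largely by mannose 6-phosphate receptors, and become active when a propeptide is cut away, a step in which legumain also takes part. Microglia, the resident phagocytes of the brain, are known for high expression of several cathepsins, and CD68 is a common histological marker of their phagocytic state.

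The stretch before the start of each gene was read for 2 sequence elements, as description only. The first was CACGTG, the core of the element through which the regulator TFEB acts on many lysosomal genes. The second was GAGGAA, the core of sites bound by PU.1, a transcription factor of the ETS family that microglia and other myeloid cells use. RefSeq windows of assembly GRCr8, from 250 bases before to 50 bases after the start, were matched for 9 of the 10 genes, all but *Ctsb*, and both strands were searched. *Ctsd* was the single member with CACGTG, which began 157 and 10 bases before its start, and 6.42% of all 33469 windows held this word. GAGGAA was found on either strand in 6 of the 9 windows (*Ctsc*, *Ctsk*, *Ctss*, *Ctsz*, *Ctsh* and *Cd68*) and in 27.6% of all windows. These matches describe the letters and are no measurement of binding, and their relation to the differences between groups was not tested. The 250 bases before the start are shown for *Ctsd* as the member with the first element, and for *Cd68*, *Ctsz* and *Ctss* as 3 members with the second, each read 5′ to 3′ on the gene's own strand with the matched letters in capitals (TTCCTC is GAGGAA on the opposite strand).
Ctsd, chr1:206968822-206969071, minus strand: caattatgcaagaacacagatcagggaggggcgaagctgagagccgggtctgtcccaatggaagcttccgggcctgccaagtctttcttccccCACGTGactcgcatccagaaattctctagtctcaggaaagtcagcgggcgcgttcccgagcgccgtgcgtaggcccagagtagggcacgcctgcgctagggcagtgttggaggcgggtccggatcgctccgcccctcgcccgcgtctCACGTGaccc
Cd68, chr10:54882442-54882691, minus strand: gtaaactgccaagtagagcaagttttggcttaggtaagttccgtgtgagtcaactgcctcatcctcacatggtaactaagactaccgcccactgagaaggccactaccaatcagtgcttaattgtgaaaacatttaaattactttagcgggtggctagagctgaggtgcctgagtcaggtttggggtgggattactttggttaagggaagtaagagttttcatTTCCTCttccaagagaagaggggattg
Ctsz, chr3:183653848-183654097, minus strand: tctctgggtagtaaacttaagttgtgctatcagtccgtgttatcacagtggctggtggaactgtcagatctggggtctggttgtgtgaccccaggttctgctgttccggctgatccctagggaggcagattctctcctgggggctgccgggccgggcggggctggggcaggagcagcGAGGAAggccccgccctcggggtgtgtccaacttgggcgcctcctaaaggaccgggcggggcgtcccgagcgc
Ctss, chr2:185775146-185775395, plus strand: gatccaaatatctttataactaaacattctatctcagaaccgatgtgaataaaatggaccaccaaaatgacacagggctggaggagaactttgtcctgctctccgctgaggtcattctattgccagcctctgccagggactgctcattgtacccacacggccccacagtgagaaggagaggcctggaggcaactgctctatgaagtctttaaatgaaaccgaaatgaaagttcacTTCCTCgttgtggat

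The bulk libraries held 25121893 to 44649404 estimated counts each. Gene levels are given as CPM, counts scaled to the same total in every library, which are not divided by transcript length and so are compared between rats and not between genes. Marker genes of cell types differed between the groups and also between libraries of the same group. The summed level of 10 microglial markers was 226 to 240 CPM in the sham libraries and 382, 675 and 404 CPM in TBI replicates 1, 2 and 3, and the summed level of 5 fibroblast markers was 34.5 to 74.3 CPM in sham and 171, 78.1 and 962 CPM in the TBI replicates. The summed level of 7 astrocyte markers was 4059 to 4949 CPM in sham and 6873 to 9904 CPM in TBI, and that of 4 macrophage markers was 9.74 to 11.8 CPM in sham and 16.1, 17.4 and 46.6 CPM in TBI. The 8 oligodendrocyte markers summed to 17398 CPM in sham replicate 2 and to 5192 to 8063 CPM in the other libraries. TBI replicate 3 was also highest in 7 endothelial markers, at 467 CPM against 245 to 294 CPM elsewhere, and in 7 pericyte markers, at 340 CPM against 113 to 157 CPM. The 7 glutamatergic neuron markers summed to 4454 to 5183 CPM in sham and 3613 to 4558 CPM in TBI. Among them *Prox1* had 105.6, 25.62 and 16.0 CPM in sham and 76.0, 24.8 and 47.81 CPM in TBI, in order of replicate. *Calb1* had 127.7, 37.85 and 37.69 CPM in sham and 91.95, 38.68 and 88.06 CPM in TBI. Of the neutrophil and T cell lists 1 of 4 markers each was in the table. The neutrophil marker *S100a9* had 16.1 CPM in sham replicate 2 and 0 to 0.485 CPM in the other libraries. The T cell marker *Cd3e* had 5.22, 1.10 and 0.0911 CPM in sham and 10.6, 0.359 and 0.392 CPM in TBI, in order of replicate. Several of the marker lists move with the values that follow. The part of the lists in the results was not tested, apart from the comparison with the microglial markers given further on. In bulk tissue, a change in the number of cells of a type and a change of RNA per cell cannot be told apart. The surgeries fell in spring for sham replicates 1 and 2 and TBI replicate 1, and in autumn for the other 3 rats.

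All 10 genes had a higher mean in TBI than in sham rats in bulk RNA-seq, with a median Log2FC of 0.90, against a median of 0.00 over all genes (−0.0029). The largest difference was that of *Cd68*, at 7.50 times the sham mean, followed by *Ctsc*, *Ctsz*, *Ctsh*, *Ctss* and *Lgmn* at 1.89 to 3.14 times. *Ctsb* and *Ctsl*, which many cell types express, differed least, at 1.37 and 1.31 times. In 8 of the 10 genes all TBI libraries lay above all sham libraries, as in 11.7% of all genes, and in 0 of the 10 they all lay below, as in 3.06%. By edgeR's quasi-likelihood test with Benjamini-Hochberg adjustment over all 14166 genes, 0 of the 10 passed an FDR of 0.01, and 0% of all genes did. At an unadjusted p under 0.05 the test took 9 of the 10 as higher, against 8.2% of all genes, and 0 as lower, against 1.4%. By DESeq2, 5 of the 10 (*Ctss*, *Ctsh*, *Ctsc*, *Ctsz* and *Cd68*) were higher at an FDR of 0.01, against 1.17% of all genes, and 0 were lower, against 0.0212%. With adjustment only over the genes with p under 0.05, as the study did, *Lgmn* made it 6 of 10 higher, against 3.26%, and 0 lower, against 0.0918%. By limma on the log2 CPM, 0 of the 10 passed, and 0% of all genes did. The p-values measure the spread between 3 rats per group. Because the 10 genes were chosen with earlier results of these data known, the shares describe the list and are no independent test.

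**Figure D1:**
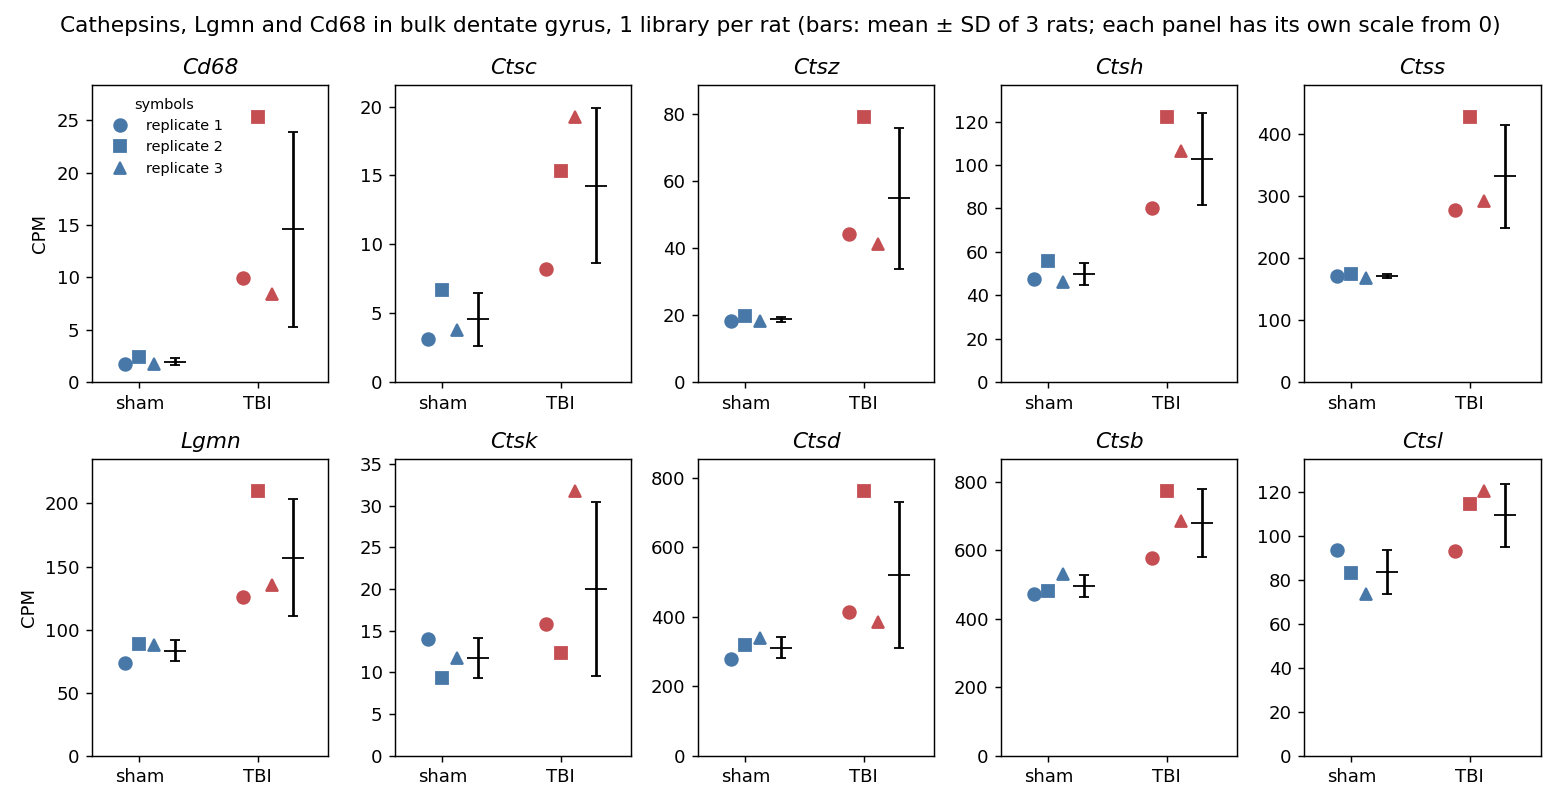
CPM (vertical axis, each panel from 0) of the 10 genes in the 3 sham (blue) and 3 TBI (red) bulk libraries, with symbols for the replicate number and black bars for mean ± SD. The red points lie above all blue points in every panel but those of Ctsk and Ctsl, and TBI replicate 2 is the highest library in 7 of the 10 panels.

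*Cd68*, a heavily glycosylated protein of late endosomes and lysosomes of macrophages, had 46, 64 and 76 counts in sham replicates 1, 2 and 3 and 246, 776 and 237 counts in TBI replicates 1, 2 and 3. As CPM these were 1.75, 2.35 and 1.73 in sham and 9.95, 25.4 and 8.44 in TBI. The groups did not overlap, and the lowest TBI library held more than 3 times the highest sham library's level, with TBI replicate 2 far above the other two TBI libraries. The Log2FC was 2.88 ± 0.46 (SE), with an unadjusted p of 0.00035 and an FDR of 0.196 by edgeR and an FDR of 3.1e-07 by DESeq2. Without TBI replicate 2 the Log2FC was 2.18.

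*Ctsz* encodes cathepsin Z, a carboxypeptidase. Its levels were 18.1, 19.6 and 18.2 CPM in sham and 44.0, 79.2 and 41.2 CPM in TBI. The sham libraries were close together (18.7 ± 0.810 CPM, SD, n = 3), and each TBI library lay at more than 2 times their mean. The Log2FC was 1.52 ± 0.26 (SE, edgeR FDR 0.196, DESeq2 FDR 2.1e-05).

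*Ctsc* encodes cathepsin C, or dipeptidyl peptidase I, which activates serine proteases of immune cells. It had 3.12, 6.71 and 3.80 CPM in sham and 8.21, 15.3 and 19.3 CPM in TBI. Sham replicate 2 and TBI replicate 1 came close to each other, and the groups did not overlap. The Log2FC was 1.61 ± 0.39 (SE, edgeR FDR 0.231, DESeq2 FDR 0.0061). *Ctsc* was among the 3 members whose highest library was TBI replicate 3, the library with the most fibroblast marker RNA, and the part of that RNA in the result was not tested.

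*Ctsh*, an aminopeptidase, had 47.6, 55.7 and 46.3 CPM in sham and 80.3, 122 and 106 CPM in TBI. The Log2FC was 1.01 ± 0.17 (SE, edgeR FDR 0.196, DESeq2 FDR 9.3e-05). *Ctsh* was the single member whose gene count was not that of 1 transcript in the deposited transcript table.

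*Ctss* encodes cathepsin S, which stays active at neutral pH and trims the invariant chain during antigen presentation. Its levels were 172, 174 and 168 CPM in sham and 277, 428 and 292 CPM in TBI. The sham rats had nearly the same level (171 ± 3.18 CPM, SD, n = 3), and the TBI rats had 332 ± 83.2 CPM (SD, n = 3). The Log2FC was 0.92 ± 0.17 (SE, edgeR FDR 0.196, DESeq2 FDR 0.00063).

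*Lgmn*, the legumain gene, had 73.6, 88.5 and 87.6 CPM in sham and 126, 210 and 135 CPM in TBI. TBI replicates 1 and 3 were similar, and TBI replicate 2 was the highest, as for *Cd68*, *Ctsz* and *Ctss*. The Log2FC was 0.88 ± 0.21 (SE, edgeR FDR 0.225, DESeq2 FDR 0.011).

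*Ctsd*, the aspartic protease of general lysosomal proteolysis, had 278, 317 and 338 CPM in sham and 413, 763 and 385 CPM in TBI. TBI replicate 3 was only a little above the highest sham library, and most of the difference in means came from TBI replicate 2, without which the Log2FC fell from 0.71 to 0.29. The SE of the Log2FC was 0.27, with an edgeR FDR of 0.441 and a DESeq2 FDR of 0.194.

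*Ctsb*, which encodes cathepsin B, an endopeptidase and dipeptidyl carboxypeptidase of many cell types, had 472, 482 and 533 CPM in sham and 578, 775 and 686 CPM in TBI. The groups did not overlap, but the gap between sham replicate 3 and TBI replicate 1 was small. The Log2FC was 0.42 ± 0.13 (SE, edgeR FDR 0.336).

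*Ctsl* encodes cathepsin L, which in neurons and other cells also takes part in the processing of precursor proteins. It had 93.7, 82.9 and 73.7 CPM in sham and 93.1, 114 and 121 CPM in TBI, so that the lowest TBI library lay just below the highest sham library. Its highest library was TBI replicate 3, which also had the most endothelial and pericyte marker RNA, and the part of that RNA in the result was not tested. The Log2FC was 0.35 ± 0.13 (SE, unadjusted p = 0.030, edgeR FDR 0.431).

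*Ctsk*, the collagen-degrading protease best known from osteoclasts, was the single member without an unadjusted p under 0.05. Its levels were 14.1, 9.28 and 11.7 CPM in sham and 15.8, 12.4 and 31.8 CPM in TBI. TBI replicate 3, the library with 962 CPM of fibroblast markers, stood alone, and without it the Log2FC was 0.24 in place of 0.73 ± 0.34 (SE, edgeR FDR 0.578). The parts of fibroblast and pericyte RNA in this difference were not tested.

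Within the surgery periods the difference in mean log2 CPM was above 0 for all 10 genes in both spring (1 TBI against 2 sham rats) and autumn (2 TBI rats against 1 sham rat). The spring differences ran from 0.079 for *Ctsl* to 2.28 for *Cd68* and the autumn differences from 0.454 for *Ctsb* to 3.07 for *Cd68*. With the period as a covariate in edgeR, 0 of the 10 genes passed an FDR of 0.01, and 0 of all 14166 genes did (smallest FDR 0.622).

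The lysosome as a whole was followed through 9 lists of other lysosomal and phagocytic genes, of which 68 of 78 were in the bulk table. The lists were also chosen with earlier results of these data known, so their shares are description only. Of these 68, 24 were higher at an unadjusted p under 0.05, against 8.2% of all genes, and 0 were lower, against 1.4%. None (0) passed an edgeR FDR of 0.01, and their median Log2FC was 0.18. Phagocytic receptors and their adaptor stood highest, with a median Log2FC of 1.42 and all 4 measured genes higher at an unadjusted p under 0.05. *Tyrobp*, the signalling adaptor of TREM2 and other receptors, had 10.4 to 11.99 CPM in sham and 23.2, 47.6 and 23.7 CPM in TBI. *Trem2*, a lipid-sensing receptor of microglia, had 10.6 to 12.8 CPM in sham and 19.5, 49.0 and 22.7 CPM in TBI. Both had their highest level in TBI replicate 2. *Mrc1*, which is also among the macrophage markers, had 3.39 to 4.51 CPM in sham. In TBI it had 7.40, 7.64 and 27.4 CPM, with TBI replicate 3 the highest (Log2FC 1.84 ± 0.52, SE).

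Glycan hydrolases came next in number, with a Log2FC above 0 in 16 of 18, 9 of 18 higher at an unadjusted p under 0.05 and a median Log2FC of 0.48. *Man2b1*, the lysosomal alpha-mannosidase, had a Log2FC of 0.75 ± 0.14 (SE), and *Glb1*, beta-galactosidase, of 0.66 ± 0.13. Among lipid and peptide hydrolases with their activators the median was 0.15 and 3 of 11 had an unadjusted p under 0.05, led by the cholesterol carrier *Npc2* (Log2FC 1.46 ± 0.29) and progranulin, *Grn* (Log2FC 1.17 ± 0.26). *Npc2* lay between 82.8 and 84.5 CPM in the sham libraries and at 176, 361 and 172 CPM in the TBI libraries, a pattern close to that of *Ctsz*.

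Of the inhibitors and the lysosomal reductase 3 of 4 had an unadjusted p under 0.05, all higher, with a median Log2FC of 0.59. *Ifi30*, the thiol reductase that acts beside cathepsin S in antigen processing, had a Log2FC of 1.26 ± 0.24 (SE, DESeq2 FDR 0.00081), and *Cstb*, an inhibitor of cysteine cathepsins, one of 0.38 ± 0.10. Of the other cathepsins *Ctsa* had a Log2FC of 0.36 ± 0.11 and *Ctse* one of 1.41 ± 0.58. *Ctse* was highest in TBI replicate 2, at 5.88 CPM against 2.39 and 1.25 CPM in the other TBI libraries and 0.876 to 1.44 CPM in sham.

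Lysosomal membrane genes had a median Log2FC of 0.15, with 6 of 10 above 0 and 2 of 10 at an unadjusted p under 0.05. These were *Laptm5*, a membrane protein of blood-derived and microglial cells, with a Log2FC of 1.25 ± 0.27 (SE), and *Laptm4a*, which many cells express, with 0.37 ± 0.13. The general lysosomal membrane protein *Lamp1* had a Log2FC of 0.23 ± 0.14 and overlapping groups. The proton pump, which acidifies the lysosome and also loads synaptic vesicles, had a median Log2FC of −0.16, with 8 of 9 subunits below 0. *Atp6v1a*, a subunit of its catalytic part, had 683 to 791 CPM in sham and 614 to 652 CPM in TBI (Log2FC −0.24 ± 0.10, unadjusted p = 0.054), and *Atp6v0e1*, a small membrane subunit, was the single one above 0 (Log2FC 0.42 ± 0.14).

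The genes that tag and sort lysosomal enzymes and the regulators of lysosomal genes had smaller differences. The 6 genes of mannose 6-phosphate tagging and sorting had a median Log2FC of −0.08 and none with an unadjusted p under 0.05, with *Sort1*, a sorting receptor, at −0.27 ± 0.17 (SE) and *Igf2r*, the large mannose 6-phosphate receptor, at −0.13 ± 0.09. The 3 regulators in the table had a median of 0.09, with *Mitf* at 0.17 ± 0.24 and *Tfe3* at 0.08 ± 0.12. The groups overlapped in all 9 of these genes, and no difference was detectable with 3 rats per group.

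**Figure D2:**
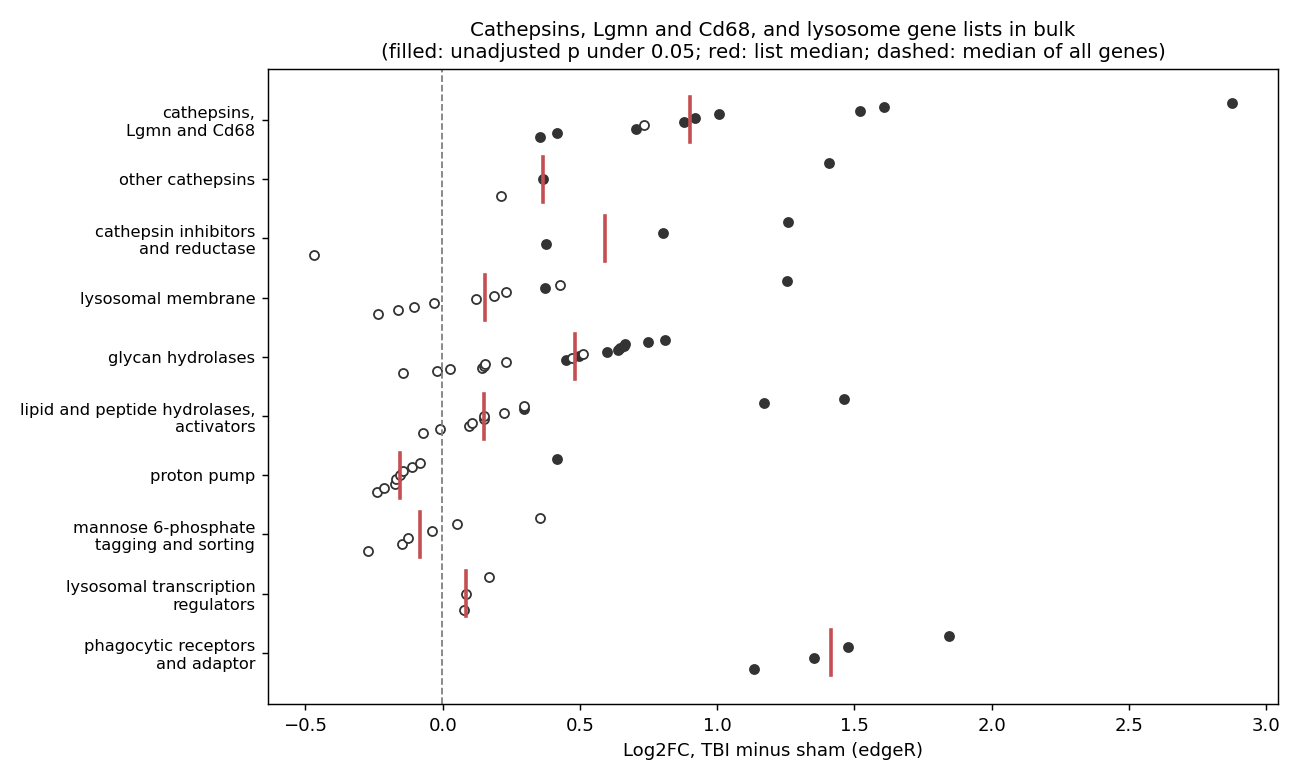
Log2FC of TBI over sham (horizontal axis, edgeR) for each of the 10 genes and of the genes in 9 lysosomal and phagocytic lists (rows). Points are genes, filled where the unadjusted p was under 0.05, red bars are list medians and the dashed line is the median of all genes. The 10 genes have a median of 0.90, the phagocytic receptors 1.42 and the proton pump −0.16.

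The shape over the 6 libraries was compared with that of all other genes. The median of the mean-centred log2 CPM of the 10 genes was −0.54, −0.35 and −0.43 in sham replicates 1, 2 and 3 and 0.14, 0.88 and 0.37 in TBI replicates 1, 2 and 3. *Lgmn* and *Ctss* lay nearest to this median, with root mean square differences of 0.063 and 0.072, and *Cd68*, *Ctsk* and *Ctsc* farthest, with 0.97, 0.60 and 0.56. The 5 other genes with the smallest differences were *Sp110* (0.066), *Evc* (0.078), *Fmnl3* (0.079), *Tcirg1* (0.089) and *Skap2* (0.093). *Tcirg1* encodes a membrane subunit of the proton pump that lysosomes and osteoclasts use, and was not among the pump genes listed above. It had 11.8 to 14.2 CPM in sham and 19.9, 33.0 and 26.9 CPM in TBI.

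The 10 genes were next set against the microglial markers of the same library, which asks whether they differed by more than these markers did. The microglial markers (*P2ry12*, *Cx3cr1*, *Csf1r*, *Tmem119*, *Inpp5d*, *Dock8*, *Apbb1ip*, *Ikzf1*, *Ptprc* and *Aif1*) were higher in TBI in mean for 10 of 10, at 2.10 times the summed sham level. Because the divisor was higher in every TBI library, most genes come out lower on this scale. Of all 14166 genes 77.5% had all TBI libraries below all sham libraries, 0.6% had them all above, and the median log2 difference was −0.97. Of the 10 members 2 were above, 3 were below and 5 overlapped, with a median log2 difference of −0.11.

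The 2 members above were *Cd68* and *Ctsz*. Per unit of the marker sum, *Cd68* had 0.0078, 0.0098 and 0.0075 in sham and 0.0261, 0.0375 and 0.0209 in TBI, 3.30 times as much. *Ctsz* had 0.0804, 0.0818 and 0.0785 in sham and 0.115, 0.117 and 0.102 in TBI, 1.39 times as much. *Ctss*, *Lgmn*, *Ctsh*, *Ctsc* and *Ctsk* overlapped between the groups, with *Ctss* at 0.737 ± 0.020 in sham and 0.694 ± 0.052 in TBI (SD, n = 3).

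*Ctsb*, *Ctsl* and *Ctsd* were below, as most genes were, since they differed less than the divisor did. *Ctsb* had 2.09, 2.01 and 2.29 in sham and 1.52, 1.15 and 1.699 in TBI. With 3 against 3 rats the exact permutation test (two-sided) cannot give a p below 0.1, so it could call none of the 10 on this scale.

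**Figure D3:**
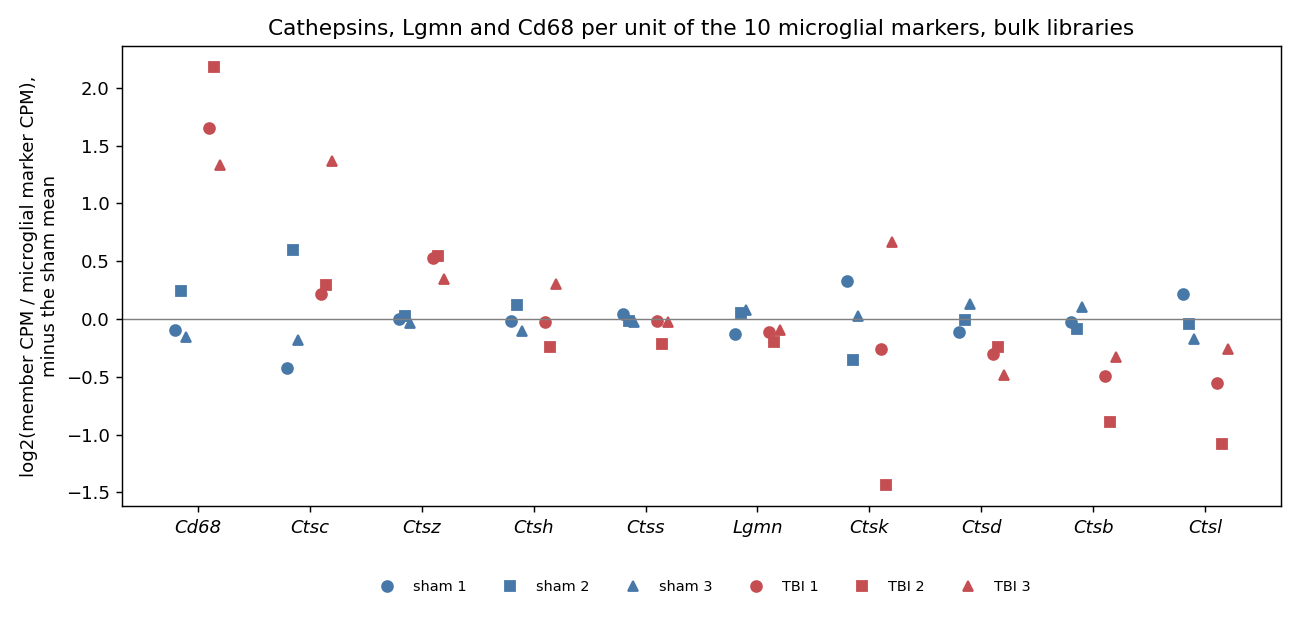
Level of each gene per unit of the summed CPM of 10 microglial markers, as log2 minus the mean of the 3 sham libraries (vertical axis), for 3 sham (blue) and 3 TBI (red) bulk libraries. Cd68 and Ctsz have all red points above the blue points, Ctsd, Ctsb and Ctsl have them all below, and the other 5 genes overlap, where 77.5% of all genes lie below.

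Which cells held the transcripts was read from the nuclei. The 4 matrices had 55863 nuclei, of which 55124 passed the study's filters, with 26086141 to 35293678 UMIs (counted RNA molecules) per rat and a median of 1647 to 2652 UMIs per nucleus. Between 144 and 171 nuclei of a library carried a barcode that another library also held. Clusters were made without the 10 genes and without the listed lysosomal genes, so that the classes do not rest on them, and took a name only from fixed markers. The microglia-like class joined 2 clusters, 1 of 2505 nuclei with a median of 680 UMIs and 1 of 637 nuclei with a median of 2119 UMIs, and in each all 10 microglial markers passed a log2 fold of 1 over the other nuclei. *P2ry12*, *Cx3cr1* and *Csf1r*, which define microglia, were detected in it in every rat, at 4.70 to 32.8, 164 to 466 and 266 to 609 CPM. The 4.70 CPM of *P2ry12* was the level in the sham rat and rested on only 3 UMIs. Neutrophil and T cell markers were at 0 to 2.15 CPM in summed level in this class, while 4 macrophage markers ranged from 8.61 to 61.0 CPM. Markers of other brain cells were also counted there, with astrocyte markers at 1454 to 1606 CPM, glutamatergic neuron markers at 1334 to 1654 CPM and oligodendrocyte markers at 413.6 to 697 CPM, beside microglial markers at 2904 to 5343 CPM. The part of such RNA in the levels per class was not tested. Most excitatory neuron clusters stayed unnamed, because they make up the bulk of the nuclei they would be compared with.

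In nuclei, microglia-like nuclei had the highest mean CPM of the 10 classes for 8 of the 10 genes. *Ctss* showed it most, with a mean of 494 CPM in microglia-like nuclei (398 in the sham rat, 851 in the naïve rat, 343 and 386 in the TBI rats). The next named class was pericyte-like at 51.1 CPM on 9 UMIs, followed by astrocyte-like nuclei at 26.8 CPM, and the GABAergic neuron-like nuclei had 7.77 CPM. Microglia-like nuclei held 56.3% of all *Ctss* UMIs. An unnamed cluster of 88 nuclei that carried both oligodendrocyte and microglia markers came second with 338 CPM. It was also second for *Ctsd* (120.07 against 120.65 CPM), *Ctsb* (107 against 117 CPM), *Lgmn* (305 against 447 CPM) and *Ctsz* (20.2 against 60.6 CPM). For all 8 genes the microglia-like range over the rats overlapped that of the next class. How many of all genes were highest in microglia-like nuclei was not counted.

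*Ctsz* had 60.6 CPM in microglia-like nuclei, from 23.5 to 120 over the rats, against 18.4 CPM in endothelial-like and 7.58 CPM in astrocyte-like nuclei. Microglia-like nuclei held 43.0% of its UMIs. *Ctsc* had 32.7 CPM there and 18.7 CPM in endothelial-like nuclei, and *Cd68* had 8.12 CPM there on 33 UMIs against 1.30 CPM in astrocyte-like nuclei on 19 UMIs. Of *Ctsc* and *Cd68* UMIs 26.8% and 26.2% lay in microglia-like nuclei. The share varied by rat, from 0% in the sham rat to 46.3% in TBI 2 for *Cd68* (11.1% without TBI 2, or 8 of 72 UMIs) and from 23.1% to 52.0% for *Ctsz*. *Cd68* had so few UMIs that its pericyte-like mean of 5.94 CPM was that of 1 UMI.

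*Lgmn* and *Ctsh* UMIs came in larger part from other classes. *Lgmn* had 447 CPM in microglia-like nuclei and 70.7 CPM in oligodendrocyte-like, 69.0 CPM in GABAergic neuron-like and 68.2 CPM in astrocyte-like nuclei, 3 classes that did not differ beyond the spread over rats. Whether these like levels are of the nuclei themselves or of free RNA was not tested. *Ctsh* had 100 CPM in microglia-like nuclei, from 58.1 to 189.5 over the rats. Pericyte-like nuclei came next with 68.8 CPM on 11 UMIs and overlapped this range (40.8 to 119), followed by endothelial-like nuclei. Astrocyte-like nuclei had 49.9 CPM of *Ctsh* and held 46.5% of its UMIs, against 17.5% for microglia-like nuclei. In GABAergic neuron-like nuclei *Ctsh* had 2.98 CPM.

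*Ctsb* and *Ctsd* were near even between microglia-like and endothelial-like nuclei and lower in the other large classes. *Ctsb* had 117 CPM in microglia-like, 106 CPM in endothelial-like, 60.6 CPM in astrocyte-like and 49.6 CPM in GABAergic neuron-like nuclei, and the microglia-like range over the rats (72.0 to 157 CPM) enclosed that of endothelial-like nuclei (90.1 to 114 CPM). *Ctsb* had 32.7 CPM in oligodendrocyte-like nuclei and 31.7 CPM in the unnamed clusters. *Ctsd* had 121 CPM in microglia-like and 115 CPM in endothelial-like nuclei, against 58.7 CPM in astrocyte-like, 42.3 CPM in GABAergic neuron-like and 36.4 CPM in oligodendrocyte-like nuclei and 21.6 CPM in the unnamed clusters. For both genes microglia-like nuclei held 7.42% and 10.1% of the UMIs.

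*Ctsl* and *Ctsk* had their highest level outside microglia-like nuclei. *Ctsl* had 390 CPM in endothelial-like nuclei (294 in the sham, 636 in the naïve and 169 and 459 in the TBI rats) against 115 CPM in microglia-like nuclei, and the endothelial-like nuclei were higher in each rat. *Ctsk* had 49.9 CPM in pericyte-like nuclei, on 8 UMIs, and 13.2 CPM in microglia-like nuclei, while 69.8% of its UMIs came from unnamed clusters at 11.6 CPM. In these the *Ctsk* level was nearly the same in all 4 rats (11.1 to 11.98 CPM).

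**Figure D4:**
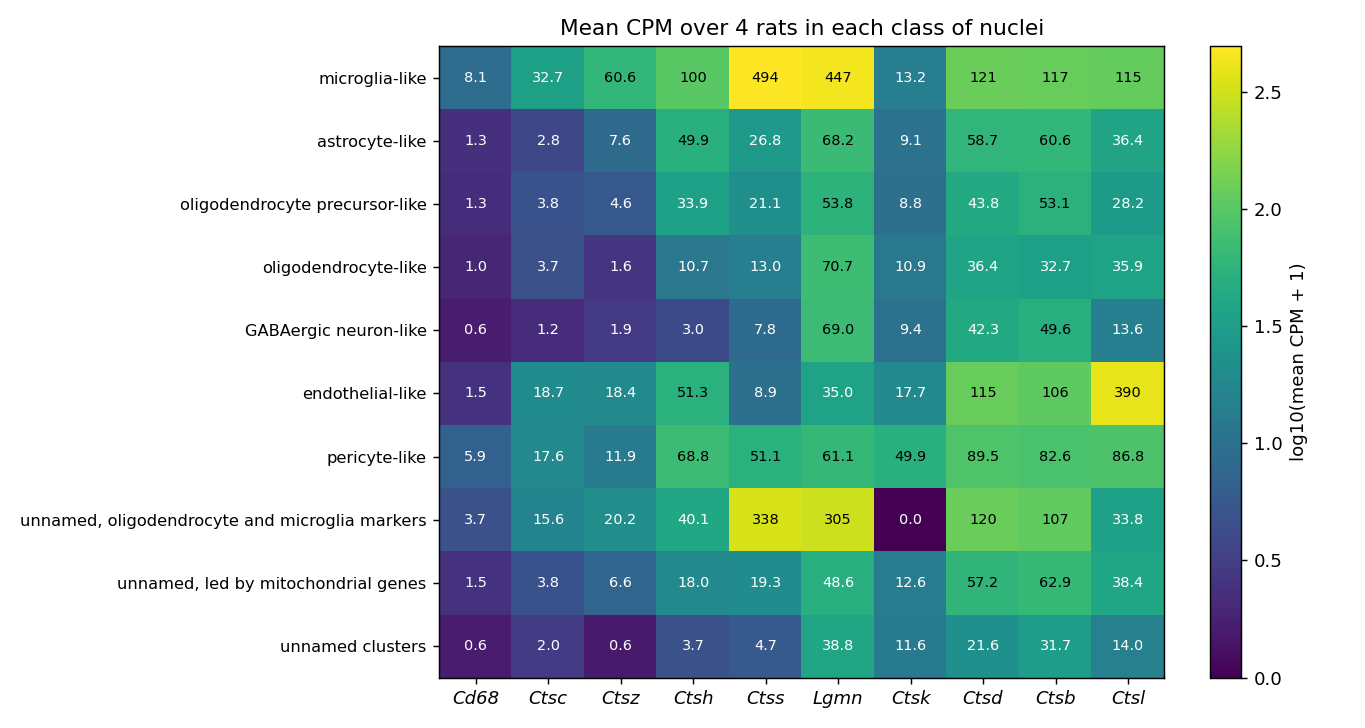
Mean CPM over the 4 rats (number in each field, colour as log10 of CPM + 1) of the 10 genes (columns) in 10 classes of nuclei (rows). Ctss and Lgmn are brightest in microglia-like nuclei at 494 and 447 CPM, Ctsl in endothelial-like nuclei at 390 CPM, and Ctsk in pericyte-like nuclei at 49.9 CPM.

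TBI was then compared with control within each class, with the sham and naïve rat joined as control, as in the study. The sham and naïve rat had 653 and 434 microglia-like nuclei, or 3.86% and 3.85% of their kept nuclei, and the TBI rats had 740 and 1315, or 5.92% and 9.13%. Within this class, 0 of the 9 genes with enough UMIs to be tested passed an FDR of 0.01 by edgeR on UMI sums per rat, as did 0% of all 9200 genes tested, and 0 of the 9 passed by DESeq2 (0%). At an unadjusted p under 0.05 there was 1 of 9, *Ctsl*, which was lower, against 2.28% of all genes. The 9 genes had a median Log2FC of −0.53, with 2 of 9 above 0, against a median of −0.0052 over all genes tested there. In 0 of the 9 were both TBI rats above both controls (18.6% of all genes), and in 2 of them, *Ctss* and *Ctsk*, both were below (11.7%). With nuclei named singly by their own markers in place of clusters, the microglia-like share was 1.89% in the sham and 3.5% in the naïve rat. It was then 3.61% in TBI 1, close to the naïve rat, and 5.81% in TBI 2.

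The naïve rat stood apart in these values. It had the highest level of 8 of the 10 genes in microglia-like nuclei, and the summed level of the 10 microglial markers was also highest there, at 5343 CPM against 2988 CPM in the sham rat and 2904 and 3578 CPM in the TBI rats. The part of this marker level in the results was not tested. *Ctsl* had 51.7 CPM in the sham rat, 282 in the naïve rat and 56.0 and 68.5 in the TBI rats (Log2FC −1.44 ± 0.61, SE, unadjusted p = 0.046, edgeR FDR 0.99987). Without the naïve rat its Log2FC was 0.22, and without the sham rat it was −2.18 and passed an FDR of 0.01. *Ctsz* had 23.5 CPM in the sham, 120 in the naïve and 26.9 and 71.7 in the TBI rats, and its Log2FC of −0.53 ± 0.67 became 1.04 without the naïve rat.

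*Ctss*, the member with the highest level in microglia-like nuclei, had 254, 467, 319 and 479 UMIs in the sham, naïve, TBI 1 and TBI 2 rats, which gave a Log2FC of −0.81 ± 0.36 (SE, unadjusted p = 0.053, edgeR FDR 0.99987). The sham rat (398 CPM) lay near the TBI rats (343 and 386 CPM), and the naïve rat (851 CPM) lay far above these rats. Without the naïve rat the Log2FC was −0.17, and without the sham rat −1.23. *Lgmn* had 318, 570, 349 and 551 CPM in the same order, with a Log2FC of −0.01 ± 0.35. *Ctsd* had 89.2, 124, 91.5 and 178 CPM, with a Log2FC of 0.31 ± 0.35. In both genes the TBI 2 rat exceeded the TBI 1 rat by more than the group means differed.

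*Cd68*, which differed most in bulk, had too few UMIs for the test. Microglia-like nuclei held 0 UMIs in the sham rat, which allows up to 4.70 CPM, 5 in the naïve rat (9.11 CPM), 3 in TBI 1 (3.23 CPM) and 25 in TBI 2 (20.1 CPM). TBI 2 was thus the highest of the 4, while TBI 1 lay below the naïve rat. These limits cover counting error only.

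**Figure D5:**
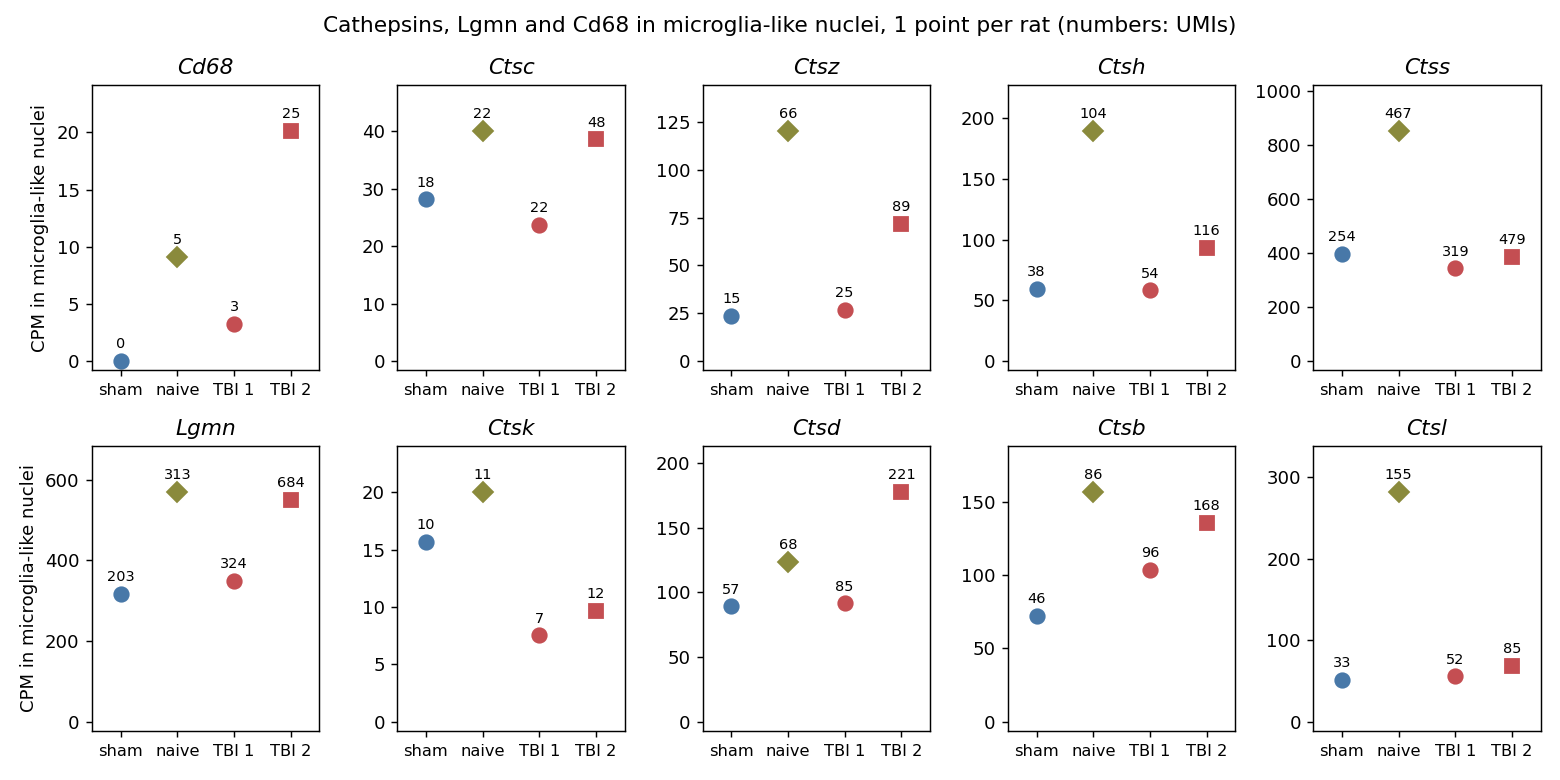
CPM of the 10 genes in microglia-like nuclei (vertical axis) of the sham, naïve and 2 TBI rats, with 1 point per rat and its number of UMIs beside it. The naïve rat is the highest in 8 panels, and the TBI 2 rat in those of Cd68 and Ctsd.

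Summed over all kept nuclei of a rat, without regard to class, 3 of the 10 genes had both TBI rats above both controls, against 23.8% of all 15959 genes with enough UMIs, and 0 had both below (9.85%). *Ctsd* had 25.8 and 27.4 CPM in the sham and naïve rats and 37.0 and 46.8 CPM in the TBI rats. *Lgmn* had 51.5 and 46.3 CPM against 60.7 and 76.9 CPM. *Cd68* had 0.680 and 0.690 CPM against 0.738 and 2.07 CPM, so that the first TBI rat lay within a few UMIs of the controls. *Ctss* had 14.4 and 21.7 CPM against 20.8 and 28.9 CPM and overlapped.

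In the other named classes no member passed an FDR of 0.01 by edgeR, and 0% of all genes tested did. In astrocyte-like nuclei 9 members were tested and 0 had an unadjusted p under 0.05, against 12.1% of all 12536 genes. DESeq2 gave an FDR under 0.01 to 0.838% of the genes there and to 0 of the 3 members for which it gave an FDR, *Ctsb*, *Ctsd* and *Lgmn*. In 0 of the 9 were both TBI rats above both controls (26.1% of all genes), and in 1 both were below (17.7%). This was *Ctsh*, the member with the largest part of its UMIs in this class, at 50.9, 66.7, 31.4 and 50.5 CPM in the sham, naïve, TBI 1 and TBI 2 rats (Log2FC −0.60 ± 0.27, SE, unadjusted p = 0.061, edgeR FDR 0.436). With each rat left out its Log2FC ran from −0.98 to −0.30, the latter without TBI 1.

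In endothelial-like nuclei 5 members were tested and 0 had an unadjusted p under 0.05, against 3.6% of 6389 genes. Both TBI rats lay above both controls for 2 of them, *Lgmn* and *Ctsd* (16.7% of all genes), and below for 2, *Ctsb* and *Ctsh* (14.6%). *Lgmn* had 21.3, 21.4, 45.1 and 52.2 CPM in the sham, naïve, TBI 1 and TBI 2 rats, on 9, 4, 12 and 15 UMIs (Log2FC 1.16 ± 0.60, SE, unadjusted p = 0.072, edgeR FDR 0.99926). *Ctsl*, which was highest in this class, overlapped, with a Log2FC of −0.56 ± 0.45.

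In oligodendrocyte-like nuclei 7 members were tested, 0 with an unadjusted p under 0.05 (1.9% of 9302 genes), and *Ctss* and *Ctsb* were the 2 with both TBI rats above both controls (22.5%), with 0 below (8.23%). In oligodendrocyte precursor-like nuclei 7 were tested, 0 with an unadjusted p under 0.05 (3.07% of 9556 genes), and *Ctsd* and *Lgmn* were the 2 above (19.3%), with 0 below (13.3%). In GABAergic neuron-like nuclei 6 were tested, 0 with an unadjusted p under 0.05 (1.4% of 11235 genes), and *Ctsd* was the 1 above (19.7%), with 0 below (8.98%). *Ctsd* there had 29.9 and 43.4 CPM in the sham and naïve rats and 45.04 and 50.9 CPM in the TBI rats, so that the naïve rat and TBI 1 were close. These shares of members lie near those of all genes or rest on 1 or 2 genes. In pericyte-like nuclei none of the 10 had enough UMIs.

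Of the 9 pathway lists, 62 genes could be tested in microglia-like nuclei. There, 0 passed an FDR of 0.01 by edgeR. At an unadjusted p under 0.05, 0 were higher and 2 were lower, where 2.28% of all genes in this class had such a p in either direction. The 62 genes had a median Log2FC of −0.05, with 30 above 0 and 32 below 0. Of the phagocytic receptors and adaptor, which stood highest in bulk, 3 were tested and all 3 were below 0 (median −0.80). *Tyrobp* had 26.6, 111, 33.4 and 77.3 CPM in the sham, naïve, TBI 1 and TBI 2 rats, and *Trem2* had 73.6, 184, 46.3 and 102 CPM. Both had their highest level in the naïve rat, as *Ctss*, *Ctsz*, *Ctsh* and *Ctsl* did.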

How the data were processed

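Bulk RNA-seq and snRNA-seq of the dentate gyrus were used, with groups and replicate numbers from the sample labels. The authors mapped bulk reads with kallisto and deposited estimated counts of 31715 transcripts, not normalized, and log2 CPM of 14166 genes, after filters on annotation, a total count of 4 and the lowest 15% in variance. Gene counts were worked back from the deposited log2 CPM, equalled the estimated count of 1 transcript within 0.001 for 10096 genes and for 9 of the 10 members, and were rounded before count models. Entrez numbers were matched to symbols by a RefSeq table of assembly GRCr8 (13778 named, 388 not). The library totals of 25121893 to 44649404 set the precision, and the gene table holds 97.8% to 98.5% of them.

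The nucleus matrices hold UMI counts that the authors deposited for each rat, made with Cell Ranger from exonic and intronic reads (Rnor_6.0 per the submitters' processing notes). Between 1.63% and 27.4% of the stored matrix entries were 0. The study's filters were kept (500 UMIs, 300 features, log10 genes per UMI of 0.8, 5% mitochondrial and 2% ribosomal UMIs). Clustering used Seurat 5.3.0 (2000 variable features without the members and pathway genes, 25 components, CCA, resolution 0.6). A cluster took a name where at least 3 markers passed a log2 fold of 1 over all other nuclei and the mean led by 0.5. Names are thus rebuilt and may differ from the study's. Doublets were not called.

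edgeR 4.0.16 (quasi-likelihood, TMM, Benjamini-Hochberg over all genes tested) gave the main results, with DESeq2 1.42.0 and limma 3.58.1 as alternatives, all run in R 4.3.3. Exact permutation tests were also run in R. In Python 3.11.15, scipy 1.17.1 matched gene counts to transcripts, and figures used matplotlib 3.10.9. Scripts were tested on simulated data. Nuclei tests used 2 TBI rats against 2 controls. Named genes are the 10 members, the 2 genes per pathway list with the smallest bulk p, and the 5 genes most like the members over the libraries. Genes named beside these (*Lamp1*, *Mrc1*, *Tcirg1* as a pump subunit, *Prox1*, *Calb1*, *S100a9* and *Cd3e* among the markers) were singled out after their values were seen. The members and lists were chosen with earlier results of these data known. Same-numbered bulk rats had deviations that correlated at 0.35, 0.17 and −0.03, so the numbers were not taken as pairs. The surgery periods were taken from the month of the injury date in the deposited metadata, without the year, and their names are not the authors'. The files' genome differs from the RefSeq table's assembly, so coordinates are given only for RefSeq's own promoter windows. Protein sequences were not used here.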

Additional observations from a re-analysis of the deposited data

How the results depend on the processing

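In bulk, 0 of the 10 members passed an FDR of 0.01 by edgeR under any alternative (relative log expression scaling, a filter on low counts, a replicate block, surgery period as a covariate, each rat left out) and by limma, but 5 passed by DESeq2 and 6 by DESeq2 with the study's adjustment. Of the pathway genes, 8 and 14 passed by the same 2 settings and 0 otherwise. All 10 Log2FC kept their sign in all of these. The median pathway Log2FC ran from 0.092 (without TBI replicate 2) to 0.276 (without sham replicate 2), and the median of the 10 members from 0.753 to 1.02. With each rat left out in turn, 8 to 10 members had groups that did not overlap. Leaving out a rat cannot make separated groups overlap, so this number could not fall below 8 and is no check of the result. The median log2 difference per microglial marker ran from −0.14 to 0.056 and turned positive only without TBI replicate 2. With the replicate number as a block, 0 of the 10 members passed an FDR of 0.01, and 1 gene of the table passed. Sham replicates 1 and 2 correlated best with the TBI library of their own number and sham replicate 3 did not, which is a hint from the data and no pairing. No paired analysis was possible in nuclei because the groups share fewer than 2 numbers.

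In nuclei, none of the members' differences was called. In endothelial-like nuclei the signs of *Lgmn*, *Ctsd*, *Ctsb* and *Ctsh* held when 1 rat was left out, and that of *Ctsl* turned. In the oligodendrocyte-like, precursor-like and GABAergic neuron-like nuclei some signs held and others turned. In microglia-like and astrocyte-like nuclei most members' signs turned. Those of *Ctss* and *Ctsk* in microglia-like nuclei (−1.23 to −0.17 and −1.25 to −0.90) and of *Ctsh* in astrocyte-like nuclei (−0.98 to −0.30) did not. Members past an FDR of 0.01 in microglia-like nuclei numbered 0 to 1 with each rat left out, the 1 being *Ctsl* without the sham rat. A fit without the sham or naïve rat has 1 control, which is assumed to vary as the TBI rats do. With each rat left out, the microglia-like Log2FC ran from −0.40 to 0.68 for *Ctsb*, −2.18 to 0.22 for *Ctsl*, −1.32 to 0.31 for *Ctsh*, −0.55 to 0.14 for *Ctsc*, −1.42 to 1.04 for *Ctsz*, −0.25 to 0.69 for *Ctsd* and −0.38 to 0.45 for *Lgmn*. The astrocyte-like Log2FC ran from −0.29 to 0.41 for *Ctss*, −0.40 to 0.074 for *Ctsb*, −1.27 to 0.057 for *Ctsl*, −0.050 to 0.28 for *Ctsk*, −0.45 to 0.15 for *Ctsc*, −0.75 to 0.50 for *Ctsz*, −0.19 to 0.69 for *Ctsd* and −0.036 to 0.25 for *Lgmn*. Other turned signs in microglia-like nuclei were *Lgmn* at 0.039 with no filter on low counts, *Ctsb* at −0.11 and *Lgmn* at 0.038 with nuclei gated by markers, and *Ctsz* at 0.64 with at least 1000 UMIs. Taken alone, a choice made after seeing the data, the cluster of fewer UMIs gave −0.13 for *Ctsb* and 0.052 for *Lgmn*, and that of more UMIs 0.080 for *Ctsh*, 0.26 for *Ctsz* and −0.11 for *Ctsd*. In astrocyte-like nuclei *Ctsz* turned to 0.0016 with relative log expression scaling and 0.015 by DESeq2, and gating gave −0.024 for *Ctsk*, 0.16 for *Ctsc* and 0.16 for *Ctsz*. The cause was not tested. Depth also limits the nuclei, with a median of 632 to 817 UMIs per microglia-like nucleus in the 4 rats.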
